A study of Mus musculus with 4 samples.

Results

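Bone marrow stromal cells feed blood stem cells and their progeny with secreted growth factors, and 9 genes for such factors were followed here: Angpt1, Angpt2, Angptl4, Kitl, Csf1, Il7, Ptn, Mdk and Thpo. The members were chosen by symbol. Every probe set that the platform annotation pairs with exactly 1 of these symbols was taken, which gave 20 of the 45037 probe sets on the array and covered 8 of the 18193 genes so named. Thpo, the gene of thrombopoietin, had 0 such probe sets and was not analysed here. In 4 of the 20 probe sets the mean over the arrays lay under the filter on low values, an intensity of 33.3, so 16 probe sets of 7 genes were tested.

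The cells were lines of mesenchymal stem cells (MSC), stromal cells selected by their quick adherence to plastic after collagenase digestion. There were 2 lines from bone marrow and 2 from flushed colon, all from C57BL/6 mice, with no transgene or treatment named. All lines shared a low-glucose culture medium with 10% serum, were passaged near confluence and were harvested between passages 5 and 10. RNA was amplified and hybridised to 1 Affymetrix expression array per line, and the labels call the arrays of a tissue biological replicates. The comparison addresses how colonic and marrow MSC differ in expression when cultured alike.

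In the marrow, stem cell factor (Kitl) acts through the receptor Kit to maintain blood stem cells, and interleukin 7 (Il7) supports early lymphocytes. Macrophage colony-stimulating factor (Csf1) keeps monocytes and macrophages alive through Csf1r. Angiopoietin 1 (Angpt1) activates the receptor Tek on endothelium and blood stem cells, while angiopoietin 2 (Angpt2) mostly opposes it. Pleiotrophin (Ptn) and midkine (Mdk) are related heparin-binding factors that signal through Ptprz1, Alk and syndecans. Angptl4 inhibits lipoprotein lipase.

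The arrays were alike in overall brightness, with median intensities between 53.6 and 55.5. Of 14 stromal markers 13 had a probe set and all 13 passed the filter, with the collagen gene Col1a2 between 14901 and 15827 on the 4 arrays. Thy1, a surface antigen often used to define MSC, was near the floor in marrow (32.8 and 22.0) and bright in colon (4516 and 9032), a difference of 7.30 on the log2(intensity + 13.7) scale used for testing, colonic minus bone marrow. Pdgfra, a stromal receptor gene of the same list, lay apart the other way, at 1609 and 2493 in marrow and 492 and 743 in colon (-1.70), and Pdgfrb was also lower in colon (-0.43). The median difference of the 13 was -0.02. Of 11 macrophage markers 5 did not pass the filter, among them Adgre1, Ptprc and C1qa, and summed macrophage marker intensity ran from 1162 to 2902 in marrow and from 1621 to 1771 in colon. Of 10 endothelial markers 6 did not pass, including Pecam1 at 1 and 1 in marrow and 1.5 and 2.48 in colon. The endothelial receptor gene Kdr passed and read higher in colon, at 31.9 and 18.5 against 91.1 and 68.9 (1.28), and the median difference of the 4 that passed was 0.48. Of 8 epithelial markers Epcam, Vil1, Cdx2 and Muc2 did not pass, but Krt20 stood at 889 on colonic replicate 1 and at most 29.4 elsewhere. Lgr5, of the same list, was higher in marrow, at 124 and 73.1 against 12.9 and 9.3 (-2.15). Of 8 markers of blood lineages, 6 had a probe set and 1, Mpo, passed the filter.

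**Figure D1:**
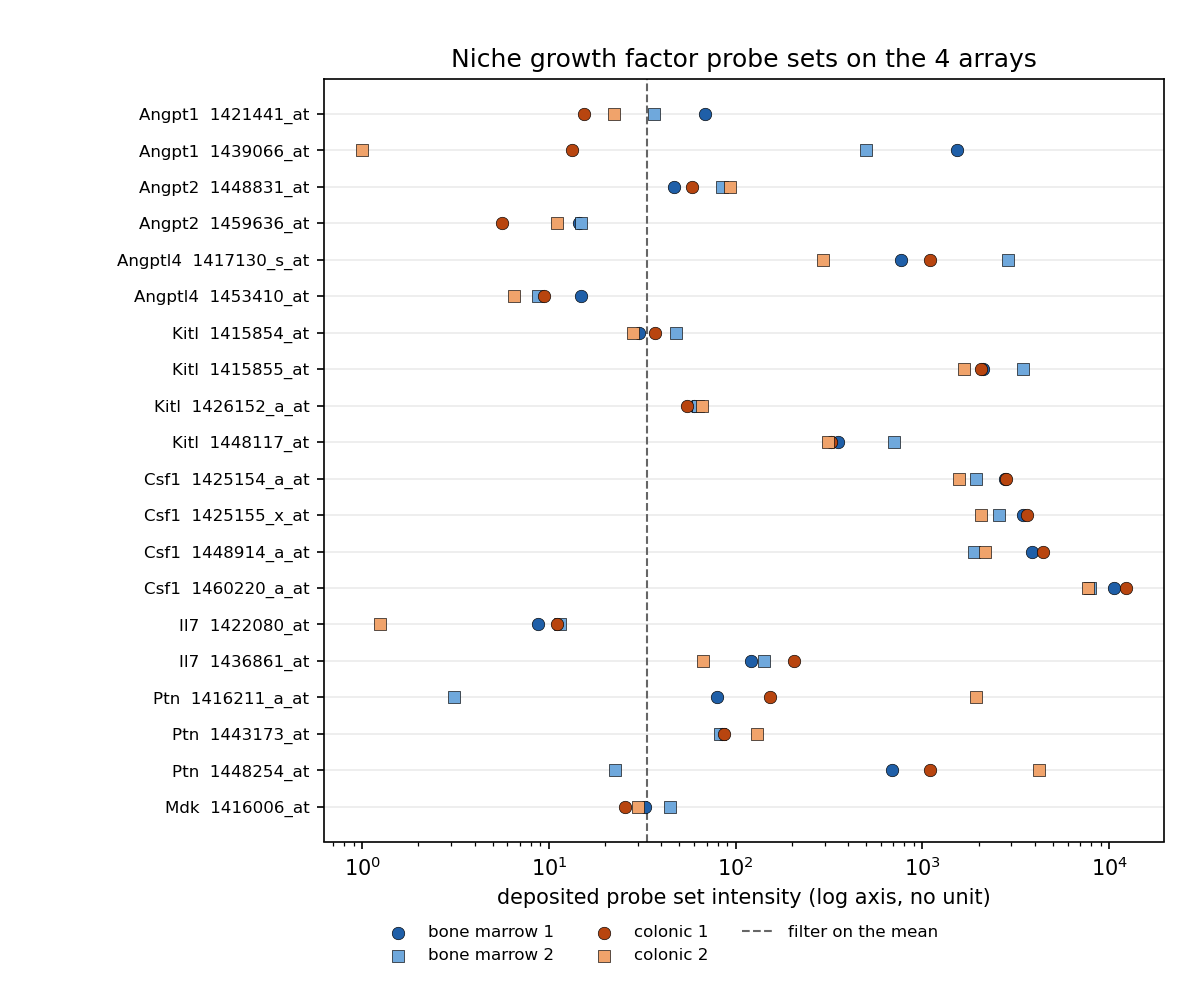
Deposited intensity (log axis, no unit) of each of the 20 member probe sets, with 1 point per array and the filter value of 33.3 on the mean as a dashed line. Angpt1 1439066_at separates the tissues widely, the 4 Csf1 probe sets are bright on every array, and the low point of Ptn belongs to bone marrow replicate 2.

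Angpt1 stood furthest apart between the tissues. Its probe set 1439066_at read 1525 and 498 on the bone marrow arrays and 13.3 and 1 on the colonic arrays. Both colonic values lay near the bottom of the scale, where an intensity of exactly 1 is also given to 2.22% of all values, and both marrow values were bright. As means this was 1012 ± 727 (SD, n = 2) in marrow and 7.16 ± 8.71 (SD, n = 2) in colon. On the scale used for testing, log2(intensity + 13.7), the difference colonic minus bone marrow was -5.48 ± 0.65 (SE), and 4.24 separated the lower marrow array from the higher colonic one. With limma over all 27022 probe sets tested, its adjusted p was 0.155, the lowest among the members, so it did not pass 0.05. The size depends on the pseudocount, since the colonic values are near the floor: it was -7.35 with a pseudocount of 1 and -3.93 with one equal to the median of all values. Mural cells around vessels and osteoblasts are known sources of Angpt1. Of 7 osteoblast markers 5 had a probe set and passed, with a median difference of -0.09. Among them Sp7, an osteoblast transcription factor gene, was higher in marrow like Angpt1, at 1629 and 137 against 51.2 and 53.1 (-2.92, with 1.17 between the closest arrays). Dmp1 had the opposite sign (1.79), at 6.43 and 3.91 in marrow and 206 and 5.54 in colon, so colonic replicate 1 alone was high. Alpl and Ibsp differed by -0.09 and -0.20. Summed intensity of the osteoblast markers was 14501 and 9975 in marrow and 10702 and 12304 in colon, most of it from Col1a1 (12750 and 9701 against 10322 and 12147). All 7 mural markers passed, with a median difference of 1.47 and sums of 20899 and 16238 in marrow and 23675 and 17324 in colon, most of it from Acta2, between 15980 and 17010. Rgs5, a pericyte marker, was the 1 mural gene with an unadjusted limma p under 0.05 and was higher in colon, at 51.9 and 15.4 against 122 and 94.1. The median of 1.47 is the value of Rgs5 itself. Cspg4 and Notch3 had the opposite sign, with differences of -0.22 and -0.18. Myh11, Kcnj8 and Abcc9 reached 1123, 263 and 674 on colonic replicate 1 and at most 43.4, 24.55 and 11.6 elsewhere. The part of these cells in the Angpt1 difference was not tested. In bulk RNA, fewer cells expressing a gene and less RNA per cell cannot be told apart.

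The other Angpt1 probe set, 1421441_at, was dim throughout, at 68.2 and 36.7 in marrow and 15.3 and 22.3 in colon. The tissues again did not overlap and the direction was the same, but the difference was only -0.99 ± 0.33 (SE), and -0.64 without bone marrow replicate 1. Its limma adjusted p was 0.821.

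Angpt2, the partner and frequent antagonist of Angpt1 at Tek, did not separate the tissues. Probe set 1448831_at read 47.0 and 84.6 in marrow and 58.6 and 93.1 in colon, so that the arrays overlapped and the one numbered 2 was the higher in each tissue. The difference was 0.19, with a 95% confidence interval from -0.82 to 1.19 on the log2 scale. The dim probe set 1459636_at, which did not pass the filter, lay between 5.59 and 14.8.

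The receptor Tek itself stood near the filter value, at 32.0 and 15.9 in marrow and 43.6 and 42.2 in colon, a log2 difference of 0.62 ± 0.30 (SE) with a limma adjusted p of 0.966. Tie1, the related endothelial receptor, did not pass the filter. Further relatives did not share the Angpt1 direction as a group. Of 7 genes listed, 5 had a probe set and 4 passed the filter, with a median log2 difference of 0.95 and 0 past an adjusted or an unadjusted p of 0.05. Angpt4, the third angiopoietin, read 669 and 671 against 1097 and 909. Angptl6 read 330 and 453 against 197 and 266. Angptl7 and Angptl1 reached 222 and 158 on colonic replicate 1 and at most 30.1 and 17.9 on the other arrays. The other tested probe sets of Angpt4 and Angptl1 differed by 0.31 and -0.22.

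On the log2 scale used for testing, Ptn had the widest range over the arrays among the members, 6.87, followed by Angpt1 with 6.71. That order depends on the pseudocount. As a ratio of intensities, Angpt1 1439066_at ranged more widely, from 1 to 1525, than Ptn 1448254_at, from 22.6 to 4226. In probe set 1448254_at Ptn read 691 and 22.6 in marrow and 1099 and 4226 in colon. Both colonic arrays were above both marrow arrays, yet the marrow lines themselves differed by 4.28 on the log2 scale, more than the tissue difference of 3.76 ± 1.56 (SE). The 95% confidence interval ran from -0.33 to 7.86 and the limma adjusted p was 0.918. Bone marrow replicate 2 carried much of the difference, which was 1.62 without it and 5.90 without bone marrow replicate 1.

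A second Ptn probe set, 1416211_a_at, also read higher in both colonic lines, at 79.1 and 3.09 in marrow and 153 and 1932 in colon. On the log2 scale used for testing, the larger gap here lay between the colonic lines, 3.55 against 2.47 between the marrow lines. That order depends on the pseudocount, because the marrow value of 3.09 is near the floor. As a ratio of intensities, the marrow lines lay further apart than the colonic lines. The tissue difference of 1416211_a_at was 3.85 ± 1.44 (SE), with a 95% confidence interval from 0.08 to 7.63 and a limma adjusted p of 0.879. Without colonic replicate 2 it was 2.08 and without bone marrow replicate 2 it was 2.62. The third probe set, 1443173_at, stayed between 82.7 and 130 on all arrays, with a difference of 0.30 ± 0.31 (SE). The probe sets of this gene thus disagreed in size, although all 3 had a positive sign. Mdk, the family relative of Ptn, was represented by 1 probe set that did not pass the filter, with 32.8 and 44.3 in marrow and 25.7 and 30.2 in colon.

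Among the receptors of these factors, Ptprz1, the receptor-type phosphatase bound by Ptn, also read higher in colon. It stood at 34.0 and 260 in marrow and at 562 and 2081 in colon, a log2 difference of 3.27 ± 1.07 (SE) with a limma adjusted p of 0.812. Its other 2 tested probe sets differed by 2.08 and 3.45. Colonic replicate 2 had the highest value of both Ptn and Ptprz1, but in marrow replicate 1 was the higher array for Ptn and replicate 2 for Ptprz1. The heparan sulphate proteoglycan Sdc2 went the other way, at 8125 and 6605 in marrow and 3574 and 3183 in colon, with a difference of -1.12 ± 0.17 (SE) and an adjusted p of 0.249. Alk, the receptor kinase, lay between 62.9 and 88.5 on all arrays.

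**Figure D2:**
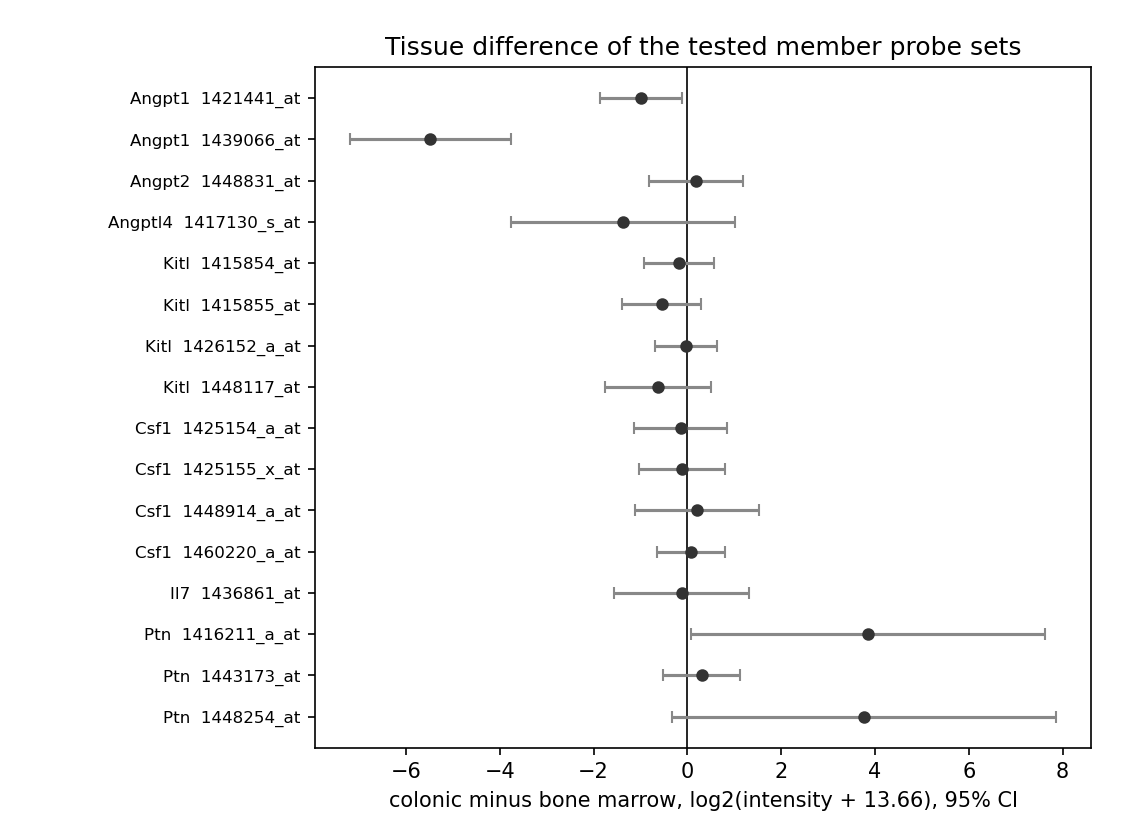
Difference colonic minus bone marrow on the log2(intensity + 13.7) scale for the 16 tested member probe sets, with limma's 95% confidence interval as bars. The intervals of both Angpt1 probe sets lie below 0, that of Ptn 1416211_a_at lies just above 0, and the other 13 include 0.

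Kitl, the stem cell factor gene, was read brightly in both tissues. Probe set 1415855_at read 2112 and 3466 in marrow and 2047 and 1672 in colon, a difference of -0.54 ± 0.32 (SE). Probe set 1448117_at read 354 and 701 in marrow and 324 and 314 in colon, a difference of -0.62 ± 0.43 (SE). In both, bone marrow replicate 2 was the high array, and the other marrow array was only 0.04 and 0.12 above the higher colonic array on the log2 scale. Without bone marrow replicate 2 the differences were -0.19 and -0.15, and without bone marrow replicate 1 they were -0.90 and -1.10. The 95% confidence intervals reached from -1.38 to 0.29 and from -1.76 to 0.51, and thus extended past 2-fold toward marrow. The remaining pair of Kitl probe sets were dim, with values from 28.2 to 65.7 and differences of -0.18 and -0.02. The limma adjusted p of the 4 lay between 0.990 and 0.996. The receptor Kit did not pass the filter, at 34.3 and 49.6 in marrow and 14.5 and 16.5 in colon.

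Csf1 was bright on every array and varied more between lines of 1 tissue than between tissues. Probe set 1460220_a_at read 10669 and 7873 in marrow and 12284 and 7674 in colon. Probe set 1448914_a_at read 3876 and 1899 against 4438 and 2177. In all 4 Csf1 probe sets the array numbered 1 was the higher one in marrow and also in colon, by 1.34-fold to 2.04-fold, while the tissue differences were between -0.14 and 0.20. Taken over the 4 probe sets, the 95% confidence intervals of the tissue difference stayed between -1.14 and 1.52. The labels do not say that arrays with the same number share an animal, a day or a batch.

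The receptor Csf1r read 266 and 148 in marrow and 324 and 244 in colon, with a log2 difference of 0.47 ± 0.41 (SE). This stood beside macrophage markers that were dim, except for Cd14, between 573 and 963, and Lyz2, which ranged from 31.7 to 1589 with its highest value on bone marrow replicate 1. The part of macrophages in the Csf1r and Csf1 readings was not tested. Il34, the other ligand of Csf1r, was low, at 61.3 and 40.4 in marrow and 28.1 and 22.4 in colon, with a difference of -0.71 ± 0.28 (SE) and an adjusted p of 0.892.

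Il7 was read at modest intensity by 1436861_at, with 120 and 142 in marrow and 205 and 66.8 in colon. The colonic lines enclosed the marrow lines, and the difference was -0.12 with a 95% confidence interval from -1.56 to 1.31. The other probe set, 1422080_at, did not pass the filter and peaked at 11.5. The receptor Il7r did not pass the filter. Tslp, a cytokine that acts through a receptor containing the Il7r chain, read 19.6 and 14.6 in marrow and 178 and 50.2 in colon, a difference of 1.85 ± 0.57 (SE) with a limma adjusted p of 0.776. It was the only 1 of 6 tested related cytokines with an unadjusted p under 0.05, and the median difference of those 6 was 0.80. Il11 reached 416 on colonic replicate 1 and at most 34.2 elsewhere, and Csf3 lay between 27.3 and 56.0.

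Angptl4 was the other member with a wide spread, and its spread lay within the tissues. Probe set 1417130_s_at read 766 and 2890 in marrow and 1100 and 293 in colon. The tissues overlapped: the arrays of marrow were 1.90 apart and those of colon 1.86 on the log2 scale, against a tissue difference of -1.36 ± 0.91 (SE). Without bone marrow replicate 2 that difference was -0.42, and without bone marrow replicate 1 it was -2.31. Without colonic replicate 2 it was -0.43 and without colonic replicate 1 it was -2.29. The limma adjusted p was 0.990. Its second probe set, 1453410_at, did not pass the filter and never exceeded 14.9.

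Lpl, the lipase that Angptl4 inhibits, was chosen for mention after its values were seen. It read 125 and 2410 in marrow and 94.6 and 6536 in colon, so that replicate 2 was the high array of each tissue, whereas Angptl4 was highest in bone marrow replicate 2 and lowest in colonic replicate 2. Of 9 genes listed around lipoprotein lipase, 8 had a probe set, 5 passed the filter and 1 had an unadjusted p under 0.05. That gene was Lipg, the endothelial lipase, with 21.0 and 25.4 in marrow and 292 and 207 in colon, a difference of 2.82 ± 0.30 (SE) and a limma adjusted p of 0.132. Its other tested probe set differed by 0.91. The lipoprotein receptor Vldlr read 3412 and 6648 in marrow and 3611 and 1763 in colon, and Lmf1 and Apoc2 differed by 0.24 and 0.17. Among markers of fat cells, the fatty acid binding protein gene Fabp4 read 5157 and 4901 against 460 and 112, while Cidec and Lep did not pass the filter. Pparg, the regulator of fat cell formation, read 2782 and 4520 in marrow and 657 and 2340 in colon (-1.50). It was highest on bone marrow replicate 2 as Angptl4 was, but in colon Pparg was higher on replicate 2 and Angptl4 on replicate 1. Adipoq, the adiponectin gene, overlapped between the tissues, at 24.9 and 34.6 against 73.8 and 17.3 (0.27). The part of fat-forming cells in the Angptl4 readings was not tested.

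Of the 16 tested member probe sets, 0 passed an adjusted p of 0.05 with limma, where 0% of all 27022 probe sets did. The smallest adjusted p anywhere in the table was 0.0609. An unadjusted limma p under 0.05 was reached by 3 of the 16, both Angpt1 probe sets and Ptn 1416211_a_at. Among all tested it was reached by 1520 probe sets or 5.63%. Both Angpt1 probe sets passed the filter through marrow alone, with colonic means of 7.16 (1439066_at) and 18.8 (1421441_at) under its value. The filter favours such genes, so the count of 3 is not free of it. With the filter dropped the same 3 were under 0.05, beside 2430 of all 45037 probe sets. Angpt1 1439066_at stayed under 0.05 in all 14 alternative settings. Angpt1 1421441_at, tested in 12 of them, did not with the replicate number as a block, nor without bone marrow replicate 1 or colonic replicate 1. Ptn 1416211_a_at did not with either other pseudocount, no intensity trend, robust eBayes or the block, nor without bone marrow replicate 2 or colonic replicate 2. The 16 include probe sets that share a gene, so they are not independent of each other. All arrays of 1 tissue exceeded all of the other by at least 1 on the log2 scale, about 2-fold for bright genes, in 1 member probe set toward marrow (Angpt1 1439066_at) and 0 toward colon, beside 0.836% and 1.3% of all tested. The tissues did not overlap in 3 member probe sets that were higher in colon, all of Ptn, and in 4 that were lower, both of Angpt1 and the 2 bright ones of Kitl, beside 17.9% and 15.5% overall. In the other 9 they overlapped.

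In 13 of the 16 the larger gap between arrays of 1 tissue exceeded the difference between tissues, as it did in 78.9% of all probe sets tested. The exceptions were Angpt1 1439066_at and 1421441_at and Ptn 1416211_a_at. The median difference of the 16 was -0.12, and that of all probe sets tested was 0.0031.

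**Figure D3:**
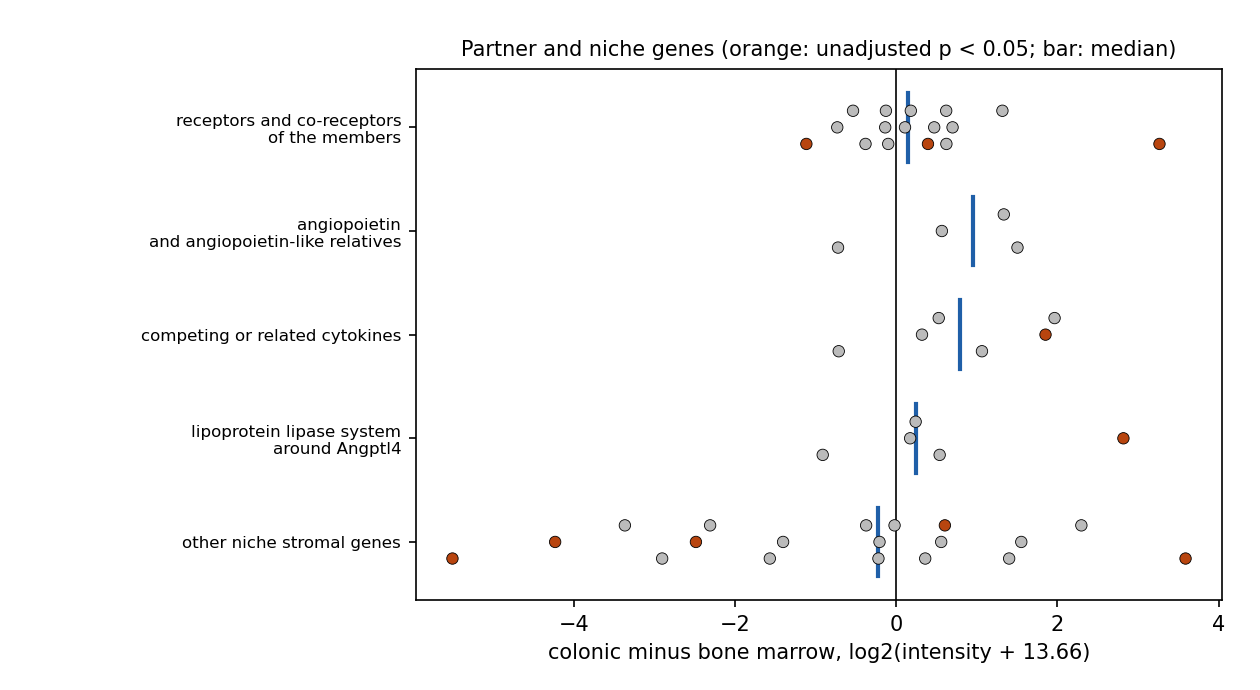
Difference colonic minus bone marrow on the log2(intensity + 13.7) scale for each tested gene of the 5 partner and niche lists, orange where limma's unadjusted p is under 0.05 and grey otherwise, with the list median as a blue bar. The most negative gene is Ccn3 at -5.51 and the most positive is Igf1 at 3.59, both in the list of other niche stromal genes.

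Beyond the members, 21 other genes of niche stroma were followed, of which 20 had a probe set and 19 passed the filter. Unadjusted limma p was under 0.05 in 2 that were higher and 3 that were lower in colon, beside 5.63% of all probe sets tested. An adjusted p under 0.05 was reached by 0, and the median difference was -0.22. The list was chosen with earlier results of these data known, so its count is not free of selection. The same share and the same limit apply to the counts in the other lists. Ccn3, a matricellular protein gene, read 2111 and 2328 in marrow and 106 and 6.45 in colon, a difference of -5.51 ± 0.89 (SE). Foxc1, a transcription factor of niche reticular cells, read 4213 and 4098 against 593 and 898. Bmp4 read 1546 and 1136 against 134 and 20.6, so that in these 3 genes the tissues stood apart in the direction of Angpt1. Igf1 stood the other way, at 12.9 and 90.3 in marrow and 1736 and 215 in colon. Lepr, the receptor that marks niche cells in the marrow, lay between 61.4 and 62.9 on all 4 arrays. Of the 22 receptors and co-receptors listed, 20 had a probe set and 16 passed the filter, with a median of 0.14 and an unadjusted p under 0.05 in 2 that were higher (Ptprz1 and Itgb1) and 1 that was lower (Sdc2).

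Likeness of pattern was measured as the Euclidean distance between profiles over the 4 arrays, each gene's log2 values being centred on their own mean, among 12929 other genes. It was computed for the 3 members whose brightest probe set ranged over at least 2 on the log2 scale. Nearest to Angpt1 were Rspo2, a Wnt agonist gene (distance 0.47), the homeobox gene Pitx1 (0.99) and Adamtsl3 (1.13). Nearest to Ptn were Aldh1a1, a retinaldehyde dehydrogenase gene (1.00), the homeobox gene Hoxd9 (1.03) and Dennd2a (1.56). Nearest to Angptl4 were the calcium channel subunit gene Cacnb2 (0.28), Ptchd4 (0.31) and the tendon transcription factor gene Scx (0.57). Rspo2 read 7899 and 2507 in marrow and 160 and 94.1 in colon, with bone marrow replicate 1 the highest as for Angpt1. Aldh1a1 read 549 and 10.8 in marrow and 1852 and 3723 in colon, with the low array again bone marrow replicate 2. With 4 arrays, many genes can share a profile, and the distances describe only these lines.

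**Figure D4:**
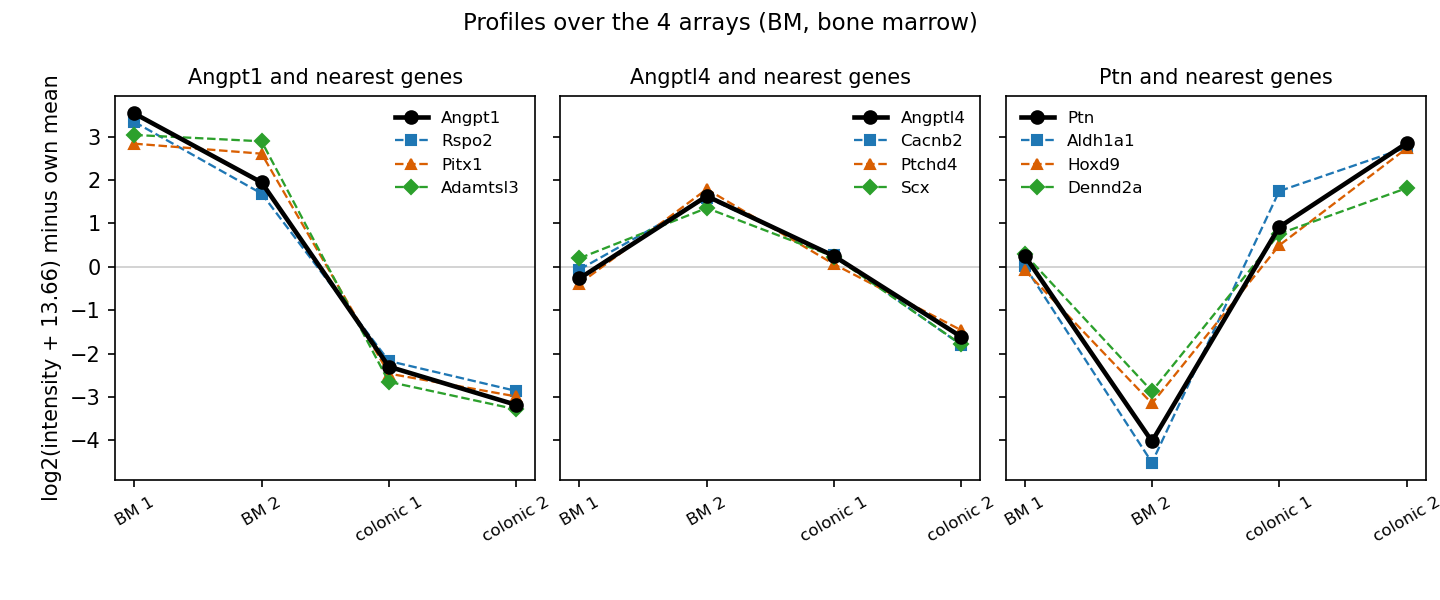
Log2(intensity + 13.7) minus each gene's own mean on the 4 arrays, for Angpt1, Angptl4 and Ptn (black) and the 3 genes nearest to each (coloured, dashed lines joining the arrays for legibility). Angpt1 is high on both marrow arrays, Angptl4 has its extremes on bone marrow replicate 2 and colonic replicate 2, and Ptn has its minimum on bone marrow replicate 2.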

How the data were processed

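RNA of 4 MSC lines was measured, 1 array each. The deposited values are intensities per probe set, linear as judged from their range; how the authors summarised probes, corrected background and scaled arrays is not stated in the labels. The 64 array controls were left out, and probe sets paired with several symbols (932) or none (9160) were tested but not named. Brightness decided which probe sets passed the filter and which probe set stands for a gene. Probe sets respond unequally, so their brightness does not rank the levels of different genes. Sums over markers follow their brightest members.

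Tests used log2(intensity + 13.7), where 13.7 is 0.25 of the table's median. Array medians lay within 0.04 on this scale, so no rescaling was applied. The scale understates ratios near the floor. Probe sets with a mean above the 40th percentile, 27022 in all, entered limma 3.58.1 in R 4.3.3 (lmFit, eBayes with an intensity trend, tissue as the only term). P-values were two-sided and adjusted by Benjamini-Hochberg over that whole table. The filter lets a gene pass through 1 tissue alone, which favours genes that differ. There were 2 residual and 2.69 prior degrees of freedom. Exact permutation of the arrays was not run, since 2 against 2 cannot reach a p under 0.333. The p-values measure the spread between these lines.

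Members, partner lists and markers were chosen with earlier results of these data known. All members are given. Up to 4 genes per list were named in the order of their p, besides the receptors, each by its brightest probe set. Lpl, Cd14, Lyz2, Fabp4, Krt20, Lepr, Thy1, Pdgfra, Pdgfrb, Kdr, Lgr5, Sp7, Dmp1, Alpl, Ibsp, Col1a1, Acta2, Rgs5, Cspg4, Notch3, Myh11, Kcnj8, Abcc9, Pparg, Adipoq, Mpo and Col1a2 were named after their values were seen. List members without a probe set were not analysed here.

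Alternatives were quantile normalization, median centring, 2 other pseudocounts, the filter moved to the 60th percentile or dropped, 1 probe set per gene, no trend, robust eBayes, the replicate number as a block, and leaving out each array, where a tissue's single array borrows the spread of the other tissue. Data were also simulated from the means and spreads of these 27022 probe sets, with normal noise and no floor. A change counted as recovered if its limma adjusted p was under 0.05 and its sign was right. In each of 5 draws 200 probe sets were changed, by 2, 4, 6 or 8 (log2) in equal numbers. A change of 2 was recovered in 11.2%, one of 4 in 56%, one of 6 in 78.4% and one of 8 in 84%. The adjustment depends on how many probe sets change and by how much, so the shares hold for this mix only. Real dim probe sets cannot fall below the floor, so these shares do not hold for them.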

Additional observations from a re-analysis of the deposited data

How the results depend on the processing

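Of the 16 member probe sets, 0 passed an adjusted p of 0.05 with limma under any of the 14 alternatives, the lowest adjusted p being 0.11 (Angpt1 without colonic replicate 1). The count over all probe sets, 0, was 12 with a filter at the 60th percentile, and between 0 and 96 when single arrays were left out, with 70 without colonic replicate 1 and 96 without colonic replicate 2. It was 54 at an adjusted p of 0.1 and 1520 at an unadjusted p of 0.05. Members with an unadjusted limma p under 0.05, 3 in number, were 1 with the replicate block, beside 1937 of all 27022 probe sets. With 1 probe set per gene, where 7 members are tested, there was 1, beside 790 of all 12930 tested. Recounting the members was chosen after seeing the data. Probe sets with the tissues at least 2-fold apart numbered 578 and 358 with 1 probe set per gene, where fewer are tested. Leaving out an array, which removes a value that could overlap, gave 1102 to 2216 of them, and 1 to 5 among the members in place of 1. The labels do not tie equal replicate numbers together; with the replicate block 0 probe sets passed, and differences between replicates correlated between tissues with r = 0.14 across probe sets.

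No member changed sign under the other scalings or pseudocounts. The filters, 1 probe set per gene, the variance models and the replicate block leave the difference itself unchanged, so its sign was fixed there. When single arrays were left out, 8 probe sets, all with differences of at most 0.20, crossed 0. Their ranges were -0.16 to 0.53 for Angpt2 1448831_at, -0.42 to 0.062 and -0.13 to 0.081 for Kitl 1415854_at and 1426152_a_at, and -0.84 to 0.60 for Il7 1436861_at. For Csf1 they were -0.56 to 0.28 (1425154_a_at), -0.53 to 0.29 (1425155_x_at), -0.32 to 0.71 (1448914_a_at) and -0.26 to 0.42 (1460220_a_at). The cause was not tested. The other 8 kept their direction in every alternative that tested them. For Angpt1, Ptn and the bright Kitl probe sets the tissues did not overlap, so leaving out an array could not change the sign. Angptl4 1417130_s_at, which overlapped, ranged from -2.31 to -0.42 when single arrays were left out. Low intensities limit Mdk, Il7 and the dim probe sets of Angpt1, Angpt2, Angptl4 and Kitl. They also limit Ptn on bone marrow replicate 2, at 22.6 in 1448254_at and 3.09 in 1416211_a_at. With a pseudocount of 1 these Ptn differences were 4.08 and 4.91, and with one equal to the median 3.21 and 2.87.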
